A study of Homo sapiens with 6 samples.

Results

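The genes described here are 36 lysosomal genes chosen by name for their place in lysosome biology. They were chosen with earlier results of these data known. They comprise 6 membrane proteins and carriers, 7 proteases, 8 glycosidases, 6 lipid hydrolases, activators and carriers, 7 parts of the proton pump and the transcription factors TFEB and TFE3. All 36 were found by their symbols among the 42978 gene symbols of the series, and all 36 reached a mean of 1 CPM (counts scaled to a common library size) in both experiments. The mRNA libraries came from MDA-MB-231, a mesenchymal-like human line of triple-negative breast cancer (without estrogen receptor, progesterone receptor and HER2 amplification). In the first experiment, cells that stably carried a lentiviral scramble shRNA were compared with cells that carried CDK16-sh1 or CDK16-sh2, hairpins against the kinase CDK16. The infected cells had been sorted as stable lines. In the second experiment, cells without a hairpin in the labels received DMSO or rebastinib (Reb), a small-molecule kinase inhibitor that the study used against CDK16, at 1 μM or 5 μM for 48 h. Each of the 6 conditions had 1 library, so no difference between 2 libraries has a replicate check. The 95% intervals given with single values cover counting error only. The labels name no molecular identifiers, so several reads may stem from 1 molecule and the intervals may be too narrow even for that error.

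Lysosomes break down proteins, sugars and lipids with hydrolases that work in acid. The acid is made by the V-ATPase, a pump with a membrane sector, V0, that carries protons and a cytosolic sector, V1, that splits ATP. Many lysosomal genes have the CLEAR element, to which TFEB, TFE3 and related factors bind when they enter the nucleus, so the activity of these factors depends on their location as well as on their mRNA. The core TCACGTGA, which reads the same on both strands and contains the shorter CACGTG, was searched for in the RefSeq promoters (GRCh38.p14, 250 bases before to 50 after each start). Of the 36 genes, 25 had a promoter entry, and 6 of these (24%) held the motif, compared with 321 of 27305 genes (1.18%) with an entry. CACGTG was held by 9 of the 25 (36%) and by 2396 of the 27305 (8.77%). The sites below show the motif in capitals with the bases around it on the gene's strand.
LAMP1, chr13:113297200-113297227, plus strand: acccgcgggaTCACGTGAcgcccgggcg
CLN3, chr16:28492059-28492086, minus strand: gcgggtgctgTCACGTGAtccgacaaac
ATP6V0D1, chr16:67481200-67481227, minus strand: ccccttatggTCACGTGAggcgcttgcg
GAA, chr17:80101494-80101521, plus strand: ggaggccgcgTCACGTGAcccaccgcgg
MCOLN1, chr19:7522572-7522599, plus strand: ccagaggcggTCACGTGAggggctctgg
CTSA, chr20:45891299-45891326, plus strand: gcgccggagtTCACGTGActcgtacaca

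LAMP1, GAA and MCOLN1 each held a second copy. Relative to the RefSeq start, the first motif base lay at −29 in LAMP1, −2 in CLN3, −60 in ATP6V0D1, −77 in GAA, −42 in MCOLN1 and −26 in CTSA. A match to these letters is a description of the sequence and does not show that a factor was bound. LAMP2, CTSB, HEXA, MANBA, NAGLU, ASAH1, PSAP, ATP6V1A, ATP6V1B2, ATP6V1C1 and ATP6V1H are the members without a promoter entry.

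Total counts were 25838443 to 31955119 in the CDK16-KD experiment and 37655548 to 50303269 in the Reb experiment. CDK16 itself had 118 normalised CPM with the scramble shRNA, 41.2 with CDK16-sh1 and 33.5 with CDK16-sh2. Markers of the cell line were present, with 5 detected genes (VIM, CD44, EGFR, ANXA1 and KRT18) summing to 385 to 1165 RPKM. ESR1, PGR and CDH1 were near 0, and the 5 genes expected to be low (with ERBB2 and EPCAM) summed to 6.88 to 9.28 RPKM. Markers of blood cells, which include lysosome-rich macrophages, summed to 0.419 to 2.47 RPKM, with PTPRC at 0 to 0.0847. Fibroblast markers summed to 1.10 to 2.67 RPKM and endothelial markers to 0.0626 to 0.808 RPKM. The 5 μM Reb library stood apart from those of its own experiment, with 16.4% of its counts on mitochondrial transcripts against 7.19% in DMSO and 8.30% at 1 μM. This share was 16.2% in the CDK16-sh2 library, 10.4% in the CDK16-sh1 library and 11.3% with the scramble shRNA. The scaling that centres each library on its bulk of genes (TMM) and the scaling by library totals differed. The difference was 0.68 on the log2 scale at 5 μM and 0.19 in CDK16-sh2. Normalised CPM and log2 fold changes are given with TMM scaling unless library totals are named. Counts from bulk cells do not tell a change in RNA per cell from a change in the number of cells.

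Levels per gene length are given in RPKM, which the authors calculated from the counts by gene length and library total. In the scramble library the 36 genes ran from 0.185 RPKM (TFEB) to 174 RPKM (CTSD), with a median of 8.42. CTSD, the aspartic protease cathepsin D, CD63, a tetraspanin of late endosomes, PSAP, the precursor of the saposins that present lipids to hydrolases, and CTSZ, the carboxypeptidase cathepsin Z, made up 59.1% of the summed RPKM. TFEB, CLN3 and MANBA were the 3 genes under 1 RPKM. In DMSO the range was 0.766 RPKM (MANBA) to 116 RPKM (CTSZ), with a median of 4.85. CTSZ, PSAP, CD63 and CTSL led there and took 57.3% of the summed RPKM. Together the 36 genes held 0.343% of the counts with the scramble shRNA, 0.459% with CDK16-sh1 and 0.334% with CDK16-sh2. In the Reb experiment this share was 0.188% in DMSO, 0.194% at 1 μM and 0.305% at 5 μM. These shares are taken of library totals, so they hold for that scaling and not for TMM. The genes with the most counts weigh most in them. PSAP alone had 12719 counts in DMSO, 10962 at 1 μM and 27669 at 5 μM.

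**Figure D1:**
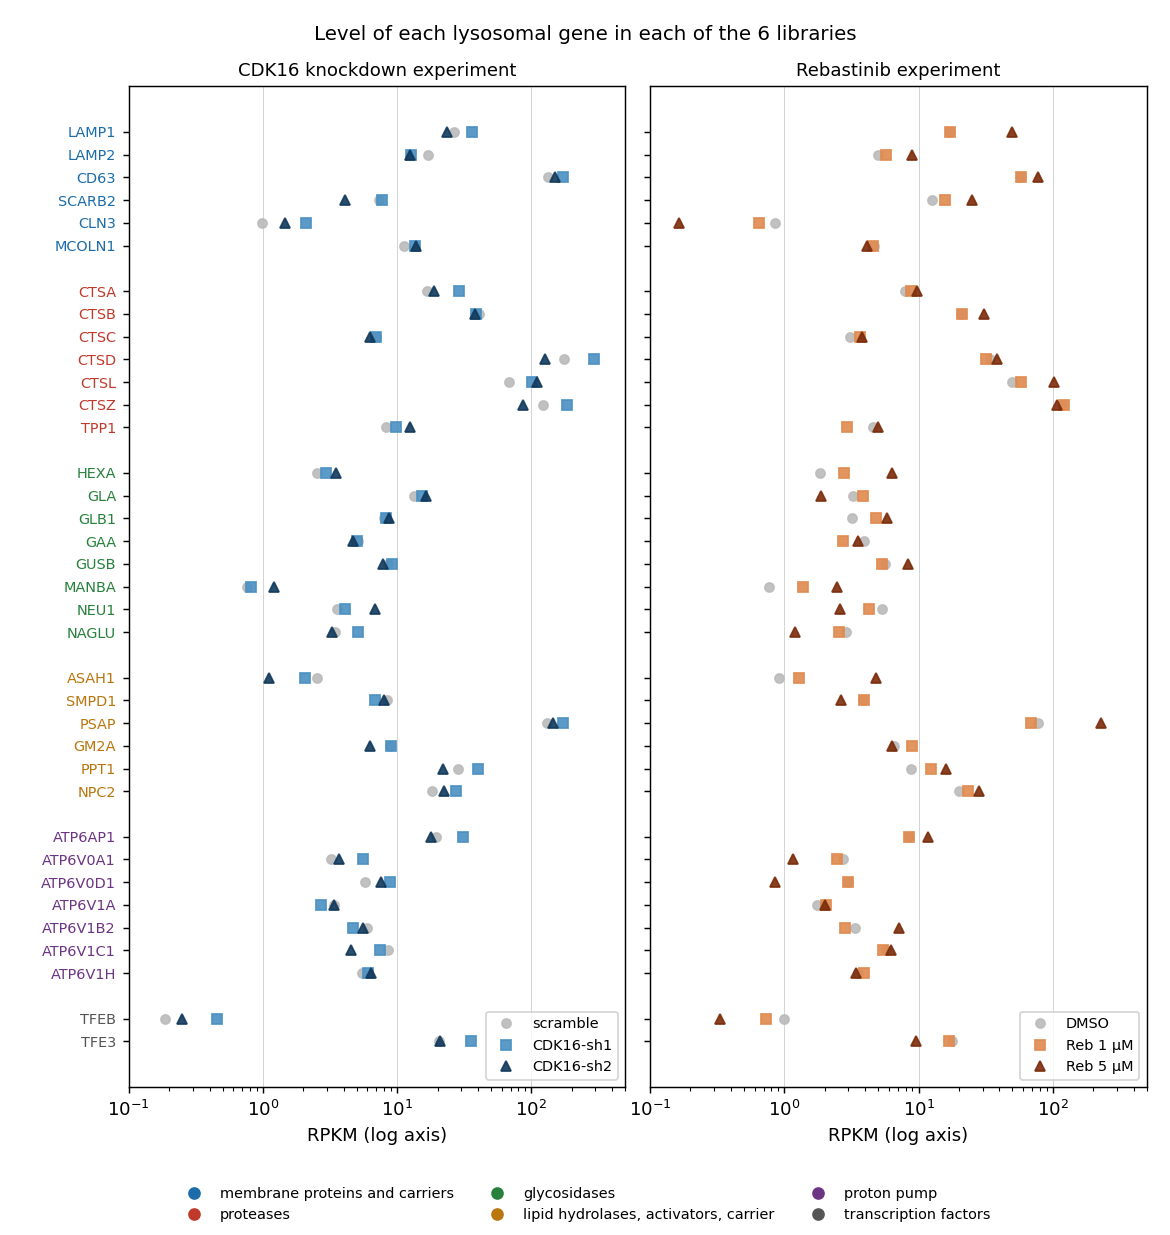
RPKM on a log axis of each of the 36 lysosomal genes in the scramble, CDK16-sh1 and CDK16-sh2 libraries (left) and in the DMSO, 1 μM and 5 μM Reb libraries (right), 1 point per library with gene names coloured by role. The levels span about the same range in both experiments, and the 5 μM points lie far to the right for ASAH1 and PSAP and far to the left for CLN3.

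The question of the first experiment was what changes when CDK16 is lowered. In CDK16-sh1, 2 of the 36 genes were at least 2-fold higher than in the scramble library and none at least 2-fold lower, beside 4.33% and 6.86% of the 15295 genes tested. In CDK16-sh2, 1 was at least 2-fold higher and none at least 2-fold lower, beside 2.2% and 7.62%. Few members were past 2-fold, and the shares that were higher lay near those of all genes. Relative to all genes the members' median was slightly up. Of the 36 log2 fold changes, 29 were above 0 in CDK16-sh1 (49.9% of all genes) with a median of 0.27, against −0.00 for all genes, and 28 were above 0 in CDK16-sh2 (51.4%) with a median of 0.21, against 0.02. By library totals the counts above 0 were 28 and 18, beside 47.9% and 36.1% of all genes, and the members' median exceeded that of all genes by 0.27 and 0.19 under either scaling, which moves all genes nearly alike. The 2 hairpins share the scramble library, so a deviation of that 1 library would enter both.

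Among the membrane proteins, CLN3, a lysosomal membrane protein mutated in Batten disease, had the highest value with CDK16-sh1. It had 9.22 normalised CPM (251 counts) with the scramble shRNA, 20.1 (662 counts) with CDK16-sh1 and 15.5 (393 counts) with CDK16-sh2. Both hairpin libraries were above the scramble library, by a log2 fold change of 1.12 (0.91 to 1.34) and 0.75 (0.52 to 0.99). In the deposited annotation CLN3 spans chromosome 16 from 28474111 to 28495575 (GRCh38), and RP11-435I10.4 on the same strand shares 25.2% of its exon bases. The counts of RP11-435I10.4 (254, 684 and 405) were nearly those of CLN3, and how reads in shared exons were counted is not given in the sources used here, so the CLN3 values are uncertain. LAMP1, the major glycoprotein of the lysosomal membrane, had 145, 200 and 147 CPM. It was higher with CDK16-sh1 (0.46) and within counting error of the scramble library with CDK16-sh2 (0.03, −0.04 to 0.09, and −0.17 by library totals). LAMP2, its relative that also serves autophagy, was lower with both hairpins, at 89.0, 68.4 and 74.9 CPM. SCARB2, the receptor that carries glucocerebrosidase to the lysosome, had 39.5, 42.2 and 25.4 CPM, and only its CDK16-sh2 value was apart from the scramble library (−0.63, −0.78 to −0.49). CD63 (0.39 and 0.36) and MCOLN1, the lysosomal calcium channel TRPML1 (0.31 and 0.50), were above the scramble library with both hairpins.

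The proteases differed between the hairpins. CTSD had 517 CPM with the scramble shRNA, 888 with CDK16-sh1 and 431 with CDK16-sh2. The 2 hairpin libraries lay on opposite sides of the scramble library, with log2 fold changes of 0.78 (0.75 to 0.81) and −0.26 (−0.30 to −0.23). RP11-295K3.1 shares 41.7% of the exon bases of CTSD on the same strand and had 12155, 24193 and 9258 counts beside the 14065, 29276 and 10893 of CTSD, so the level of CTSD is uncertain. CTSZ showed the same arrangement at 236, 364 and 191 CPM. CTSL, the cysteine protease cathepsin L, was higher with both, at 153, 230 and 282 CPM (0.59 and 0.89). CTSA, the protective protein that holds neuraminidase and galactosidase together, had 92.96, 164 and 119 CPM (0.82 and 0.36). TPP1, tripeptidyl peptidase, had 38.3, 46.9 and 66.8 CPM (0.29 and 0.80). CTSB and CTSC had log2 fold changes between −0.04 and 0.09, and with CDK16-sh2 both turned negative by library totals (−0.10 and −0.16).

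All 8 glycosidases had values at or above the scramble library with both hairpins under TMM scaling, with medians of 0.17 and 0.41, while by library totals GAA was below it with both and GUSB and NAGLU with CDK16-sh2. NEU1, the sialidase that removes sialic acid from glycoproteins, was the 1 member past 2-fold in CDK16-sh2. It had 16.4, 18.9 and 36.1 CPM, from 447, 625 and 914 counts, and log2 fold changes of 0.21 (0.03 to 0.39) and 1.14 (0.97 to 1.31). By library totals the second value was 0.94, under 2-fold. MANBA, a mannosidase, had 6.13, 6.61 and 11.2 CPM, and only CDK16-sh2 lay outside counting error (0.86, 0.58 to 1.15). HEXA, the alpha chain of hexosaminidase that fails in Tay-Sachs disease, had 30.3, 35.96 and 48.1 CPM. NAGLU, which trims heparan sulfate, had 9.81, 14.8 and 10.7 CPM, so that only CDK16-sh1 stood out. RP11-400F19.8 shares 12.6% of the exon bases of NAGLU on the same strand and had 130, 185 and 136 counts, so the NAGLU values are uncertain. GAA, the acid glucosidase that digests glycogen, was within counting error with both hairpins (0.01 and 0.07).

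Among the lipid genes, ASAH1, the acid ceramidase, had 37.0 CPM with the scramble shRNA, 30.7 with CDK16-sh1 and 18.5 with CDK16-sh2. Its log2 fold changes were −0.27 (−0.40 to −0.14) and −0.999 (−1.16 to −0.84), the second just inside the 2-fold line. Of the 36 genes it had the lowest value in CDK16-sh2. PSAP was higher with both, at 401, 537 and 508 CPM (0.42 and 0.34). NPC2, which hands cholesterol on to the membrane carrier NPC1, had 47.8, 73.4 and 66.3 CPM (0.62 and 0.47). PPT1, which removes palmitate from proteins, was above the scramble library with CDK16-sh1 (0.54) and below it with CDK16-sh2 (−0.18). SMPD1, the acid sphingomyelinase (−0.25 and 0.13), and GM2A, the cofactor of hexosaminidase (0.04 and −0.30), showed smaller values.

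The pump members were split by sector with CDK16-sh1, except for ATP6V1H. The V0 subunits ATP6V0A1 (33.7, 59.5 and 44.3 CPM) and ATP6V0D1 (44.8, 70.8 and 68.2 CPM) and the accessory subunit ATP6AP1 (90.5, 146 and 94.2 CPM) were higher, with log2 fold changes of 0.82, 0.66 and 0.68. The V1 subunits ATP6V1A, ATP6V1B2 and ATP6V1C1 were lower (−0.30, −0.29 and −0.18), and ATP6V1H was slightly higher (0.18). This split by sign was lost with GC content and length removed, when ATP6V1A, ATP6V1B2 and ATP6V1C1 were at 0.06, 0.15 and 0.23. ATP6V0A1, ATP6V0D1 and ATP6AP1 were then at 0.89, 0.53 and 0.51, still above those V1 members and ATP6V1H (0.28). With CDK16-sh2, ATP6V0A1 (0.39) and ATP6V0D1 (0.61) were again above the scramble library, whereas ATP6V1C1 was the lowest at 28.6 CPM against 47.6 (−0.73, −0.87 to −0.60). ATP6V1A, ATP6V1B2 and ATP6V1C1 have 39.7% to 40.6% GC and ATP6V0A1, ATP6V0D1 and ATP6AP1 53.8% to 58.1%, and their GC content moved with these values.

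TFEB and TFE3 were above the scramble library with both hairpins, although TFEB had few counts. TFEB had 0.992, 2.49 and 1.54 CPM from 27, 82 and 39 counts. Its log2 fold changes were 1.27 (0.68 to 2.01) with CDK16-sh1, the highest of the 36, and 0.60 (−0.11 to 1.40) with CDK16-sh2, which was within counting error. TFE3 had 83.6, 148 and 97.3 CPM, with log2 fold changes of 0.83 and 0.22. Taken per length, TFE3 (20.6 RPKM) was the more abundant in the scramble library. These are mRNA levels and do not show where in the cell the proteins were.

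**Figure D2:**
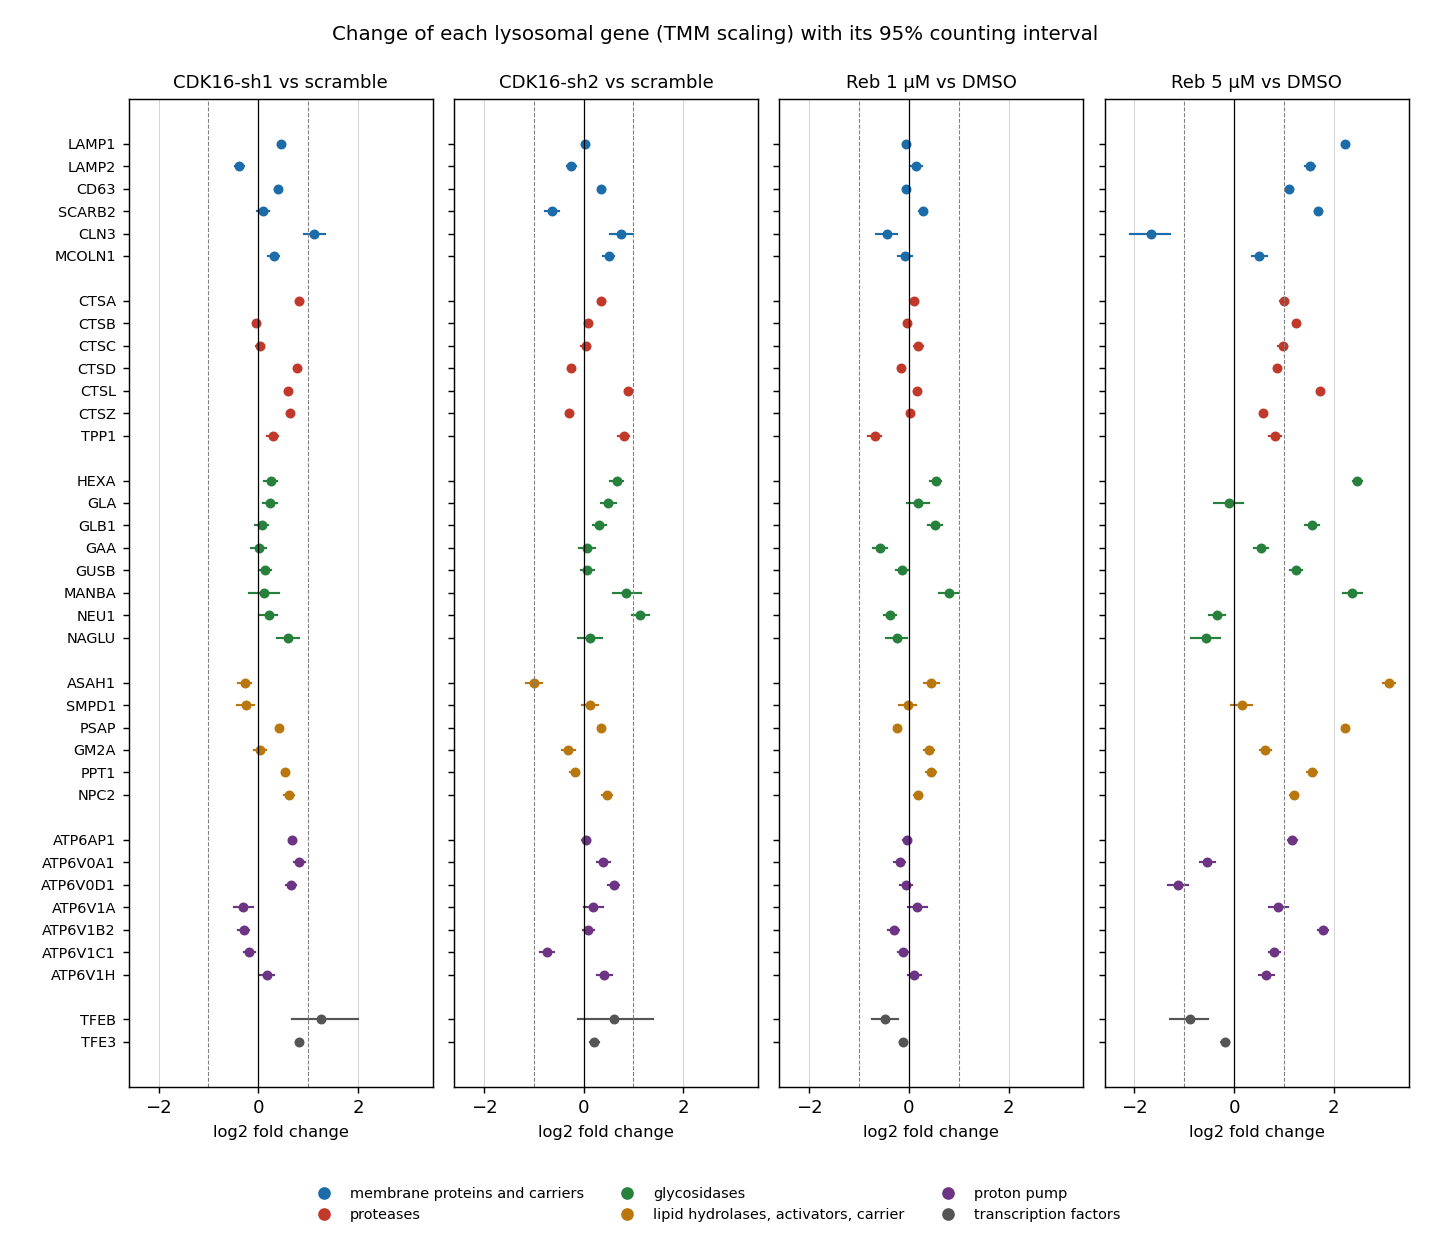
Log2 fold change (TMM-scaled CPM) of each of the 36 genes against its own control in the 4 comparisons, with bars for the 95% counting interval, dashed lines at 2-fold and colours by role. Most points of CDK16-sh1, CDK16-sh2 and 1 μM Reb lie between the dashed lines, whereas at 5 μM Reb 16 lie beyond the upper line and 2 (CLN3 and ATP6V0D1) beyond the lower.

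With 1 μM Reb, 0 of the 36 genes were at least 2-fold higher and 0 at least 2-fold lower, beside 1.28% and 1.92% of the 15655 genes tested. Their median log2 fold change was −0.03, against 0.00 for all genes, and 16 of 36 were above 0 (50.2% of all genes). MANBA had the highest value, with 5.57 CPM in DMSO and 9.73 at 1 μM (0.80, 0.61 to 1.01). HEXA (20.01 and 29.1 CPM, 0.54), GLB1, the lysosomal galactosidase (12.1 and 17.4 CPM, 0.53), ASAH1 (12.1 and 16.5 CPM, 0.45) and PPT1 (25.02 and 33.9 CPM, 0.44) followed. TPP1 had the lowest value, with 19.3 CPM in DMSO and 11.96 at 1 μM (−0.69, −0.83 to −0.55). GAA (17.5 and 11.7 CPM, −0.58), TFEB (4.82 and 3.46 CPM, −0.47) and CLN3 (7.25 and 5.33 CPM, −0.44) were next. The counting intervals of 12 genes lay above 0, those of 15 below 0 and those of 9 across it. The same was not counted over all genes, so these numbers do not set the members apart. At 1 μM the members lay on both sides of DMSO.

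With 5 μM Reb, 16 of the 36 genes were at least 2-fold higher and 2 at least 2-fold lower under TMM scaling, beside 23.6% and 27.2% of the 15655 genes tested. The 16 were LAMP1, LAMP2, CD63, SCARB2, CTSB, CTSL, HEXA, GLB1, GUSB, MANBA, ASAH1, PSAP, PPT1, NPC2, ATP6AP1 and ATP6V1B2. Just outside the line were CTSA (fold change 1.99) and CTSC (1.96). The median of the 36 log2 fold changes was 0.93, against −0.07 for all genes, and 28 of 36 were above 0 (48.3% of all genes). By library totals 7 genes were at least 2-fold higher (LAMP1, CTSL, HEXA, MANBA, ASAH1, PSAP and ATP6V1B2) and 6 at least 2-fold lower (CLN3, NEU1, NAGLU, ATP6V0A1, ATP6V0D1 and TFEB), beside 11.7% and 43.4% of all genes. The median was then 0.24, against −0.75 for all genes, and 22 of 36 were above 0 (30.6%). The distance between the members' median and that of all genes was 1.00 with TMM and 0.99 with library totals. Since a change of scaling moves all genes of a library nearly alike, these distances are close by construction. How many members were higher than in DMSO depended on the scaling.

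**Figure D3:**
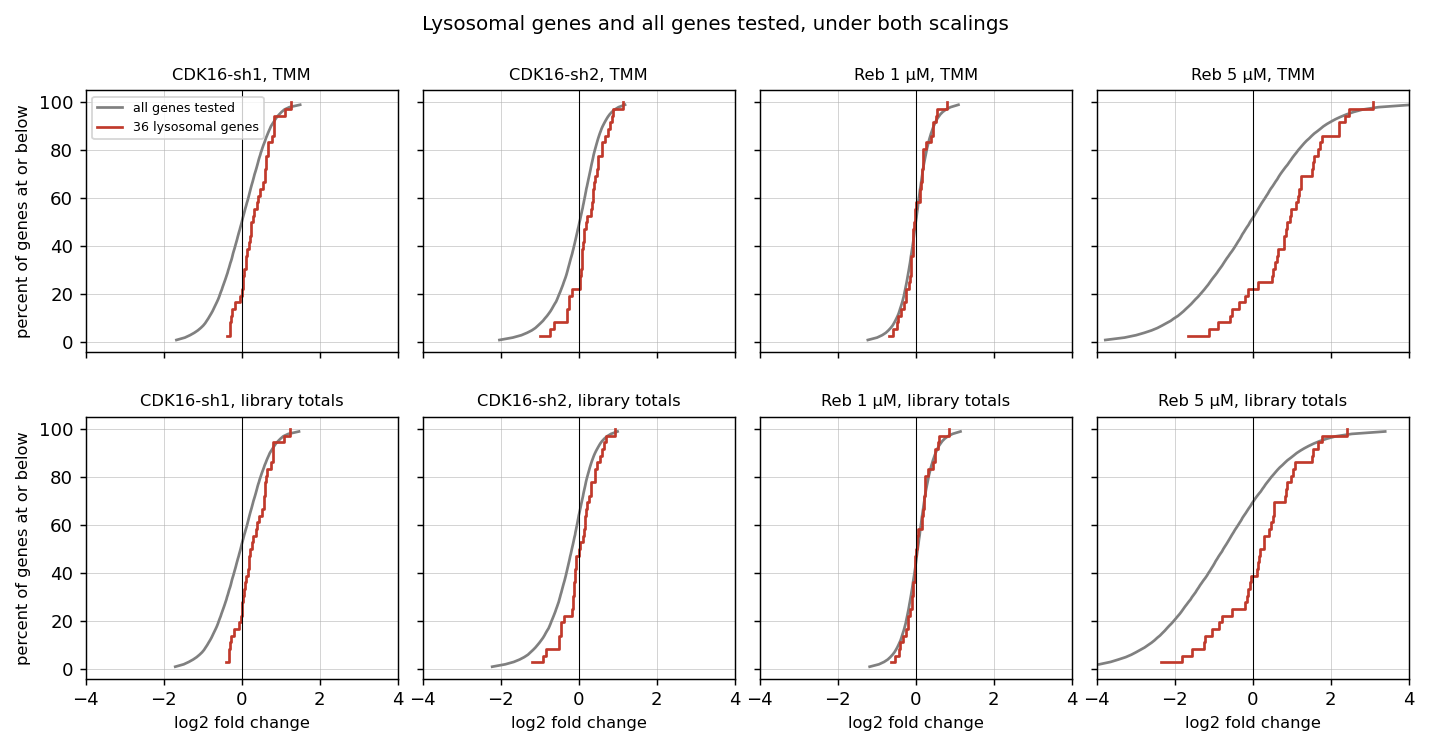
Percent of genes at or below each log2 fold change, for the 36 lysosomal genes (red steps) and all genes tested (grey), in the 4 comparisons with TMM scaling (upper panels) and library totals (lower panels). At 5 μM Reb the red steps lie to the right of the grey line under both scalings, with medians of 0.93 and −0.07 with TMM and 0.24 and −0.75 with library totals, whereas at 1 μM the curves nearly coincide.

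Of the membrane proteins, 4 of 6 were at least 2-fold higher at 5 μM and 1 at least 2-fold lower. LAMP1 had 85.2 CPM in DMSO, 81.5 at 1 μM and 396 at 5 μM, from 4969, 4833 and 10724 counts. It was slightly below DMSO at 1 μM (−0.06, −0.12 to −0.01) and above it at 5 μM, with a log2 fold change of 2.22 (2.17 to 2.27) and of 1.53 by library totals. SCARB2 had 61.8, 74.9 and 198 CPM, LAMP2 23.9, 26.6 and 68.9, and CD63 133, 127 and 286. Their log2 fold changes at 5 μM were 1.68, 1.52 and 1.11, and by library totals 0.99, 0.83 and 0.42. CLN3 was ordered the other way, with 7.25, 5.33 and 2.25 CPM from 423, 316 and 61 counts. It was lower at both doses, by −0.44 (−0.66 to −0.23) and −1.67 (−2.10 to −1.30), and RP11-435I10.4, which shares its exons, had 419, 317 and 54 counts. MCOLN1 had 15.9, 15.1 and 22.7 CPM, which was above DMSO at 5 μM with TMM (0.51) and below it by library totals (−0.18).

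All 7 proteases were above DMSO at 5 μM with TMM, with a median of 0.97, and 2 passed 2-fold, while by library totals CTSZ was below DMSO (−0.12). CTSL had 102, 114 and 336 CPM (1.72, 1.67 to 1.77). CTSB, cathepsin B, had 134, 131 and 317 CPM (1.25, 1.201 to 1.29) from 7801, 7779 and 8585 counts, and its value by library totals was 0.56. CTSA, CTSC and CTSD had 1.00, 0.97 and 0.86 with TMM and 0.31, 0.28 and 0.17 by library totals. TPP1, with 19.3, 11.96 and 34.0 CPM, was below DMSO at 1 μM and above it at 5 μM (0.82, 0.69 to 0.95). CTSZ, at 205, 207 and 304 CPM, had the lowest of the 7 values (0.57).

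Of the glycosidases, 4 of 8 were at least 2-fold higher and none at least 2-fold lower. HEXA had 20.01, 29.1 and 111 CPM from 1167, 1723 and 3012 counts. The 3 libraries were in the order of the dose, and the 5 μM value was 2.47 (2.38 to 2.57), or 1.78 by library totals. RP11-106M3.2 on the same strand shares 4.89% of the exon bases of HEXA, and RP11-106M3.3 on the opposite strand 10.1%. RP11-106M3.3 had 732, 1133 and 1915 counts in DMSO, 1 μM and 5 μM. How strand and shared exons were treated is not given, so the HEXA values are uncertain. MANBA was in the order of the dose as well, with 5.57, 9.73 and 28.8 CPM from 325, 577 and 778 counts (2.36, 2.18 to 2.56, at 5 μM), as was GLB1, with 12.1, 17.4 and 35.6 CPM (1.56). GUSB, the glucuronidase often used as a reference gene for mRNA, had 19.5, 17.8 and 46.0 CPM (1.24). The other 4 genes did not share this. NAGLU (7.53, 6.34 and 5.06 CPM, −0.57) and NEU1 (22.3, 17.2 and 17.6 CPM, −0.34) were below DMSO, GLA, the galactosidase that fails in Fabry disease, was within counting error (−0.11, −0.40 to 0.17), and GAA was above DMSO with TMM (0.53) but not by library totals (−0.15).

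The lipid genes held the highest value of the 36. ASAH1 had 12.1 CPM in DMSO, 16.5 at 1 μM and 104 at 5 μM, from 704, 980 and 2809 counts. Its log2 fold change at 5 μM was 3.10 (2.98 to 3.23), an 8.58-fold difference, and 2.41 by library totals. PSAP, whose saposin D assists ASAH1, had 218, 185 and 1023 CPM. It was below DMSO at 1 μM (−0.24, −0.27 to −0.20) and far above it at 5 μM (2.23, 2.20 to 2.26). PPT1 (25.02, 33.9 and 74.1 CPM, 1.56) and NPC2 (47.2, 53.7 and 109 CPM, 1.203) were also past 2-fold. GM2A had 25.4, 33.6 and 39.3 CPM (0.63), and SMPD1, with 9.12, 8.96 and 10.1 CPM, was within counting error (0.15, −0.06 to 0.36). By library totals GM2A (−0.06) and SMPD1 (−0.54) were below DMSO.

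At 5 μM 5 of the 7 pump members were above DMSO with TMM. The 2 below it were ATP6V0A1 and ATP6V0D1, which were above the scramble library with CDK16-sh1. All 4 V1 subunits were above DMSO with TMM, with a median of 0.85. ATP6V1B2, a subunit of the ring that splits ATP, had 22.7, 18.4 and 78.2 CPM (1.78, 1.68 to 1.88), ATP6V1A, its partner in that ring, 7.72, 8.69 and 14.3 CPM (0.89), ATP6V1C1 28.9, 26.7 and 50.5 CPM (0.81) and ATP6V1H 15.5, 16.7 and 24.3 CPM (0.65). By library totals ATP6V1H was below DMSO (−0.04). The V0 subunits among the members were below DMSO. ATP6V0D1 had 21.2, 20.3 and 9.69 CPM from 1235, 1205 and 262 counts (−1.13, −1.33 to −0.94), and ATP6V0A1 25.9, 22.8 and 17.9 CPM (−0.54, −0.69 to −0.39). ATP6AP1 had 35.7, 34.8 and 80.3 CPM (1.17). Among the 14 other pump subunits tested at 5 μM, 8 were at least 2-fold higher and 0 at least 2-fold lower, including the V0 subunit ATP6V0C, which forms the proton-carrying ring (53.7, 46.2 and 325 CPM), so the low values of ATP6V0A1 and ATP6V0D1 did not extend to V0 as a whole.

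TFEB and TFE3 were the group with no gene above DMSO at either dose. TFEB had 4.82, 3.46 and 2.59 CPM from 281, 205 and 70 counts (−0.47 and −0.89, −1.30 to −0.51, at 5 μM). TFE3 had 65.2, 60.0 and 57.4 CPM (−0.12 and −0.18). After the trends with GC content and length were removed, TFE3 was above DMSO at both doses (0.06 and 0.39) and TFEB was at −0.26 at 5 μM.

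The 6 genes with TCACGTGA in the promoter were set beside the 19 whose promoter entry lacks it. With both hairpins all 6 were above the scramble library under TMM scaling, with medians of 0.56 and 0.43, against 0.39 and 0.22 in the 19. GAA was within counting error with CDK16-sh1 (0.01, −0.14 to 0.16), and it was below the scramble library by library totals (−0.02). With GC content and length removed, GAA (−0.42) and MCOLN1 (−0.12) were below it there. LAMP1 and GAA were above it by only 0.03 and 0.07 with CDK16-sh2, and both were below it by library totals. At 1 μM 1 was above DMSO and 5 were below, while 9 of the 19 were above. At 5 μM 4 of the 6 were above DMSO with TMM, with a median of 0.52, against 14 of 19 and a median of 0.86 without the motif. Among the 90 further lysosomal genes, described later, the order at 5 μM with TMM was the opposite. With the motif 7 of 7 were above DMSO with a median of 0.87, against 35 of 59 and 0.36 without. The lowest of the 7 was at 0.02, and by library totals all genes at 5 μM lie lower, with a median shift of −0.68. In CDK16-sh1 the medians of the further genes were −0.10 with the motif and 0.04 without. Both members that were at least 2-fold lower at 5 μM, CLN3 and ATP6V0D1, hold the motif, as does LAMP1, which had the highest 5 μM value of the 25 genes with an entry. The highest of the 19 was CTSL (1.72). ASAH1, HEXA, MANBA and PSAP, the 4 members above LAMP1 at 5 μM, had no promoter entry and are in neither group.

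The change of a member moved with its GC content. The GC content of the longest transcript ran from 37.3% (ASAH1) to 64.4% (NAGLU), with a median of 52.1%, against 48.2% for all genes tested with a known value. Across the 36 genes, which share the same libraries, Pearson's r between GC content and log2 fold change was 0.60 in CDK16-sh1, 0.29 in CDK16-sh2, −0.52 at 1 μM and −0.54 at 5 μM. Over all genes it was 0.48, 0.13, −0.30 and −0.22. Of the 36, the 18 richer in GC had a median log2 fold change of 0.61 with CDK16-sh1, and the other 18 one of 0.10. At 5 μM the medians were 0.55 and 1.36. With the trends of GC content and length over all genes removed, 9 members changed sign with CDK16-sh1. LAMP2, ASAH1, ATP6V1A, ATP6V1B2 and ATP6V1C1 came to lie above the scramble library, and MCOLN1, GLB1, GAA and GUSB below it. At 1 μM 10 members changed sign, but 1 each with CDK16-sh2 (LAMP2) and at 5 μM (TFE3). The members' median was then 0.26, 0.32, 0.07 and 1.08 in the 4 comparisons, and 20 members were at least 2-fold higher at 5 μM and 1 (CLN3) at least 2-fold lower, beside 20.9% and 26.3% of all genes. ATP6V0D1 was then at −0.43. The part of GC content in these differences beyond this removal was not tested.

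**Figure D4:**
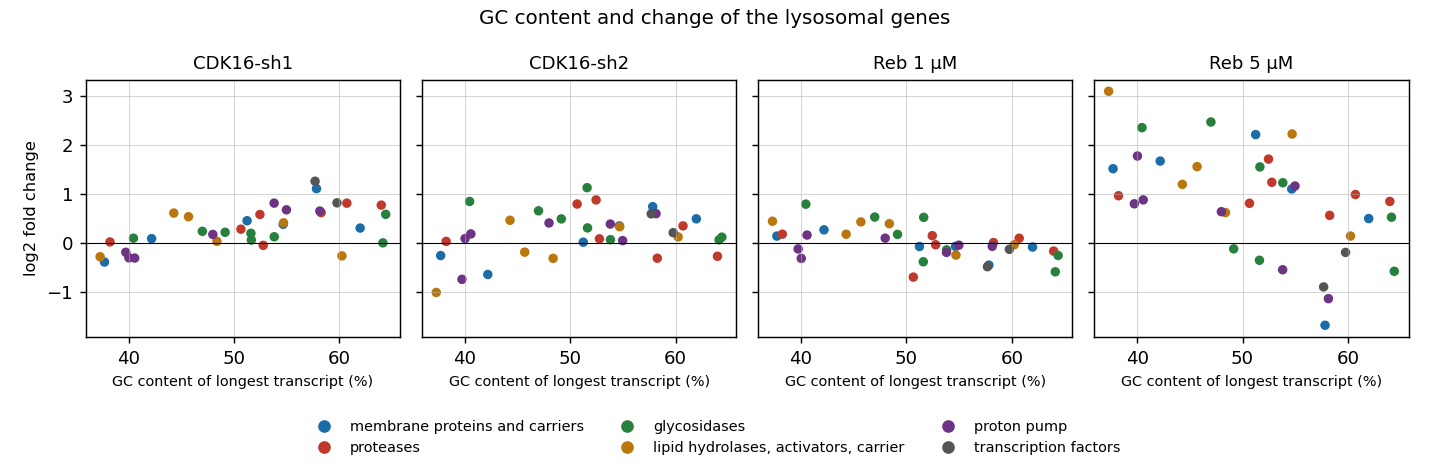
Log2 fold change (TMM scaling) of each of the 36 genes against the GC content of its longest transcript in percent, 1 panel per comparison, coloured by role. The points go up with GC content in CDK16-sh1 (r = 0.60) and down at 5 μM Reb (r = −0.54), where ASAH1, at 37.3% GC, is the highest point.

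The scramble and DMSO libraries are both controls of the same cell line. They come from different experiments, only the scramble cells carried a hairpin in the labels, and the labels give no common batch. Their distance is therefore no measure of the spread between libraries of 1 experiment. Relative to the median of the 14410 genes compared, 11 of the 36 members differed by at least 2-fold between them, beside 19.2% of all genes. These ratios were taken with 0.1 RPKM added to both libraries, which shrinks those of genes with low values such as TFEB. CTSD was lower in DMSO (log2 ratio −2.22 relative to that median), as were GLA (−1.88), LAMP2 (−1.62) and PPT1 (−1.56). TFEB (2.05) and SCARB2 (0.89) were higher. The median of the 36 was −0.56. For 22 of the 36 genes the controls were farther apart than any of CDK16-sh1, CDK16-sh2 and 1 μM Reb was from its own control. The same was not counted over all genes. It also sets RPKM ratios between experiments beside TMM-scaled changes within them.

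A further 90 lysosomal genes, listed by hand, were described by the same measures. In CDK16-sh1, 1 of the 85 tested was at least 2-fold higher and 5 at least 2-fold lower, beside 4.33% and 6.86% of all genes. The median of the 85 was 0.05. The largest decreases were in GNPTAB, which makes the mannose 6-phosphate tag of hydrolases (22.1 CPM and 8.10 with CDK16-sh1), ARSB, an arylsulfatase (15.4 and 5.91), and FNIP2 (12.6 and 6.12), and the largest increases in ATP6V0E1 (0.83), LAMTOR2 (0.82) and CTSH (0.81), all among genes with at least 5 CPM on average. The 1 gene past 2-fold upward was ATP6V1G2, below that limit (2.53 and 6.22 CPM). In CDK16-sh2, 2 were at least 2-fold higher and 1 at least 2-fold lower, beside 2.2% and 7.62% of all genes. The median was 0.17. M6PR, a receptor for that tag (36.4 and 83.2 CPM), SLC17A5, the sialic acid carrier (5.84 and 11.8), and PLA2G15 (0.94) had the highest values within the same limit, and OSTM1 (18.7 and 4.86 CPM), ATP6V1F (−0.90) and ARSB (−0.85) the lowest.

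At 1 μM Reb, 0 of 83 were at least 2-fold higher and 1 at least 2-fold lower, beside 1.28% and 1.92% of all genes. GALC (0.78), ATP6V1G2 (0.64) and FUCA1 (0.56) were highest and ATP6V0B (−0.78), ACP2 (−0.71) and CD68 (−0.65) lowest among those with a mean of at least 5 CPM. At 5 μM, 31 of 83 were at least 2-fold higher and 15 at least 2-fold lower, with a median of 0.65, beside the 23.6% and 27.2% of all genes. These are TMM values, and by library totals all genes at 5 μM lie lower, with a median shift of −0.68. How many of the 83 were above DMSO therefore depends on the scaling. The role groups were not alike. The other membrane proteins and carriers had 4 at least 2-fold higher and 6 at least 2-fold lower of 16, with a median of −0.62, whereas that of the 36 described above was 1.32 for the same role. LAMTOR3, a part of the complex that holds mTORC1 at the lysosome (3.28, 3.91 and 22.6 CPM), ATP6V0C (2.60) and ATP6AP2, an accessory subunit of the pump (12.3, 15.3 and 69.3 CPM), had the largest increases. ARSG (11.8, 8.54 and 1.63 CPM), GGA1, an adaptor that sorts hydrolases (20.1, 16.3 and 3.51 CPM), and TMEM192 (9.40, 10.4 and 1.70 CPM) had the largest decreases under the same limit of 5 CPM.

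A test across all genes needed the treated libraries to be taken as 1 group, so that the difference between hairpins or doses was its only spread. By edgeR (quasi-likelihood test, p-values adjusted by Benjamini-Hochberg), 0 of the 36 genes were called for both hairpins against the scramble shRNA, as were 0 of all 15295 genes, with the smallest p of a member at 0.104 (adjusted p = 1.00). At an unadjusted p under 0.05 there were 0 members and 382 of all genes, and DESeq2 called 0 genes, with 233 under 0.05. For both Reb doses against DMSO, 0 of 36 were called, beside 0.0703% of all genes called higher and 0.00639% lower. DESeq2, against the same 1 DMSO library, likewise called 0 of the 36. The 2 doses gave very different values for ASAH1 and PSAP, and this test counts such a difference as spread.

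When the dose entered the edgeR test as a linear term, 11 of the 36 genes were called higher and 0 lower, beside 13.3% and 11.1% of all genes. They were ASAH1 (adjusted p = 4.99e-05), HEXA (0.000976), MANBA (0.00354), LAMP1 (0.00355), PSAP (0.00514), ATP6V1B2 (0.00936), CTSL (0.0236), SCARB2 (0.0248), LAMP2 (0.0306), PPT1 (0.0330) and GLB1 (0.0401). This fit has 1 residual degree of freedom and rests on the 1 library at 5 μM, and it is no replicate test of that dose. For LAMP1, PSAP and ATP6V1B2 the 1 μM value was below DMSO, so their values were not in the order of the dose. ASAH1, HEXA, MANBA, CTSL, SCARB2, LAMP2, PPT1 and GLB1 were.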

How the data were processed

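Stranded mRNA libraries from the 6 conditions had been sequenced on a HiSeq X 10. Per the labels, reads were trimmed with Trimmomatic and counted per gene with featureCounts of Subread 1.5.1 on GRCh38. The aligner, the annotation and the treatment of overlapping genes and strand are not given in the sources used here. The deposited count tables hold the authors' whole-number read counts per gene symbol without normalization (41471 and 34157 symbols). The deposited RPKM tables hold these counts divided by gene length and library total by the authors. Coordinates are those of the count tables. All 36 symbols are in GENCODE 29, 31 with the same start and end.

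Log2 fold changes against each experiment's own control were computed from counts with edgeR 4.0.16 in R 4.3.3 (TMM scaling, prior count of 2, genes reaching 1 CPM on average), and the 2-fold threshold and the adjusted p-value of 0.05 are those of the study's methods. Each interval (95%, Clopper-Pearson) is that of a gene's split of counts between 2 libraries. Both treated libraries were tested together against 1 control with edgeR's quasi-likelihood test, and DESeq2 1.42.0, dose as a linear term (log2 of dose + 1) and the settings given in the closing section were alternatives. The GC content was known for 84.6% and 84.3% of the genes tested and was removed, with length, by a loess fit with a span of 0.5. The code was tested on simulated data. The 36 genes, the 90 further genes and the tests were chosen with earlier results of these data known. Any of the 36 genes could be named. In full were given those past 2-fold and the 2 largest changes each way per role, and of the 90 the 3 largest each way per comparison reaching 5 CPM on average. Some genes share exon bases with a member (on the same strand for 7 members, on the opposite strand for 11). Those of CLN3, CTSD, HEXA and NAGLU given in the text were chosen after their values were seen. Promoter sequences are from RefSeq (GRCh38.p14), with entries for 25 of the 36.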

Additional observations from a re-analysis of the deposited data

Results flagged for a closer look

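These genes lay on opposite sides of their control in the 2 treated libraries, with both counting intervals clear of 0 and the libraries at least 2-fold apart. With 1 library per condition the differences were not tested. The same rule was not applied to all genes, so the number of members that met it does not set them apart. CTSD was above the scramble library with CDK16-sh1 and below it with CDK16-sh2, a difference of −1.04 on the log2 scale. With GC content and length removed its values were 0.24 and −0.29, less than 2-fold apart. The other 8 genes were below DMSO at 1 μM Reb and above it at 5 μM. The log2 fold change at 5 μM minus that at 1 μM was 2.47 for PSAP, 2.28 for LAMP1, 2.09 for ATP6V1B2, 1.504 for TPP1, 1.37 for GUSB, 1.17 for CD63, 1.11 for GAA and 1.01 for CTSD. By library totals GAA was below DMSO at both doses (−0.53 and −0.15), and LAMP1 and CD63 were close to DMSO at 1 μM (−0.01 each). With GC content and length removed, CD63 (0.05) and CTSD (0.10) were above DMSO at 1 μM and so no longer on opposite sides. CTSZ and PPT1 (above with CDK16-sh1, below with CDK16-sh2), ATP6V1A (the reverse) and ATP6V1C1 (below DMSO at 1 μM, above at 5 μM) were on opposite sides as well but less than 2-fold apart.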

How the results depend on the processing

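No paired analysis was possible because each condition had 1 library and the labels give no replicate numbers. For the same reason leaving out a library leaves no comparison or no spread. No member past 2-fold changed sign under any alternative, whereas LAMP1, CTSB, CTSC, GAA, GUSB, NAGLU, SMPD1, ATP6AP1, ATP6V1A and ATP6V1B2 did so in CDK16-sh2 with library totals. The 2 members at least 2-fold higher in CDK16-sh1 (CLN3 and TFEB) became 1 with RPKM (0.1 added) or a minimum of 5 CPM, which removes TFEB, and 12 at 1.5-fold (16.5% of all genes). In CDK16-sh2 the 1 higher member (NEU1) became 0 with library totals or RPKM, 2 with GC and length removed and 8 at 1.5-fold (11% of all genes). The 0 lower members there became 1 (ASAH1) with DESeq2 size factors, library totals, RPKM, a prior count of 0.5 or a minimum of 5 CPM, and 3 at 1.5-fold (16.8% of all genes). At 1 μM Reb 1.5-fold gave 1 higher and 1 lower member (6.09% and 7.19% of all genes) in place of 0 and 0. At 5 μM the 16 higher and 2 lower members became 7 and 6 with library totals or RPKM, and 1 was lower with GC and length removed. The members' median there was 0.24 with library totals, 0.23 with RPKM, 0.73 with no filter and 1.08 with GC and length removed, and that of CDK16-sh2 was 0.01 with library totals and RPKM. With dose as a linear term 11 members were called in place of 0. Leaving mitochondrial transcripts out of the scaling changed no count. Depth limits mainly TFEB, whose interval in CDK16-sh2 reached from −0.11 to 1.40.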
